A study of Mus musculus with 15 samples.

Results

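Brainstem RNA from prenatal Lmx1b-/- mice was compared with that of WT mice, 3 libraries against 3, which are 6 of the 15 libraries of the series. The members were chosen by the genotype in the labels. The 3 Lmx1b+/- libraries of the same experiment entered the filter on low counts, the scaling and the estimate of the spread, but were not part of the comparison. No treatment is given for any of them. Lmx1b-/- was described as embryonic lethal and the WT mice as littermates. The embryonic day, the strain, the allele, the exons it removes and the number of embryos in a library are not given in the sources used here, so the p-values measure the spread between these libraries only.

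Lmx1b is a LIM-homeodomain transcription factor. It is known for its part in the maturation of serotonergic neurons of the raphe, in the isthmic organizer at the border of midbrain and hindbrain, in midbrain dopaminergic neurons, and in glutamatergic relay neurons of the dorsal hindbrain and spinal cord. The isthmic organizer is a signalling centre that secretes fibroblast growth factors and patterns the midbrain and the cerebellum. Serotonergic neurons of the raphe project to the respiratory rhythm generator and modulate its output.

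The authors' counts per gene came to between 28833130 and 36492793 per library, and 3 counts, the limit that a count of 0 allows, stood for 0.0676 to 0.106 CPM (the count of a gene relative to the TMM-scaled sum of its library). Of the 57180 genes listed, 21729 passed edgeR's filter on low counts and were tested by its quasi-likelihood test, and DEGs are those whose p, adjusted by Benjamini and Hochberg's method, was under 0.05. Both genotypes held hindbrain and neuronal RNA, with mean levels of 6.21 RPKM in WT and 8.02 RPKM in Lmx1b-/- for Hoxa2, and of 676 and 682 RPKM for the neuronal tubulin Tubb3. Mitochondrial genes took 5.57% to 6.74% of the counts in WT and 7.23% to 7.98% in Lmx1b-/-, higher in every null library than in any WT library, and the part of this in the results was not tested. Libraries of one genotype were not alike. WT 3 had 4.56% of its counts on the most abundant gene, ENSMUSG00000119584, against 13.9% to 21.9% in the other 5. WT 2, Lmx1b-/- 2 and Lmx1b-/- 3 were high in Xist, the RNA that coats the inactive X chromosome (1270, 1050 and 1040 CPM), and the other 3 libraries were at 2.43 to 4.29 CPM. By Xist, 1 of 3 WT and 2 of 3 Lmx1b-/- libraries were thus female. Since the tissue is bulk, fewer cells of a type and less RNA per cell cannot be told apart in any result given here.

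Lmx1b itself (ENSMUSG00000038765) was measured first, as a check of the labels. WT 1 to 3 held 22.5, 16 and 9.73 CPM, and Lmx1b-/- 1 to 3 held 1.45, 1.13 and 0.848 CPM. The groups did not overlap, and the lowest WT library was 6.7-fold above the highest null library. The WT mean of 16.1 ± 6.39 CPM stood against 1.14 ± 0.303 CPM in the null libraries (SD, n = 3 each), so that 7.1% of the WT level remained. Lmx1b fell by 3.82 on the log2 scale (SE 0.41), with an adjusted p of 0.00287 by the quasi-likelihood test. A two-sided exact permutation test of the CPM gave p = 0.1, the smallest that 3 libraries against 3 allow. The null libraries still held 45, 38 and 32 counts of the gene, and counts per gene do not tell whether these reads lie outside the deleted part. Lmx1b+/- libraries, at 30.5, 11.9 and 14.3 CPM, overlapped the WT range. Their mean of 18.9 CPM was not below the WT mean, so this check does not tell Lmx1b+/- from WT libraries.

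Only 4 genes were DEGs, 0.0184% of all tested genes, and all 4 fell: Slc6a4, Tph2, Lmx1b and Calb1. On the higher side 0 genes passed the quasi-likelihood test. At an unadjusted p under 0.05 were 1757 genes (8.09%), with 1206 higher in Lmx1b-/- and 551 lower (5.55% and 2.54% of the tested genes). The split by direction depended on the scaling and on the libraries fitted. Of the genes at that p, 68.6% were higher under TMM, 57.4% after a trend with gene length was removed and 45% when only library size was used. In the fit of the 6 WT and Lmx1b-/- libraries alone the share was 54.3%. DESeq2 called 35 genes, 0.161% of those tested, of which 13 were higher (0.0598%) and 22 lower (0.101%). A fit of the 6 libraries alone called 13, or 0.0614%, all of them lower. The genes that it added to the 4 were the factors Fev, En2, Rora and Prrxl1, the growth factor Fgf15, Cnpy1, the carbonic anhydrase relative Car8, the heparan sulfate sulfotransferase Ndst4 and the neuropeptide Cck. All tested genes together had a median log2 fold change of 0.01. The plot of change against abundance shows 3 of the 4 DEGs far below a cloud centred near 0.

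**Figure D1:**
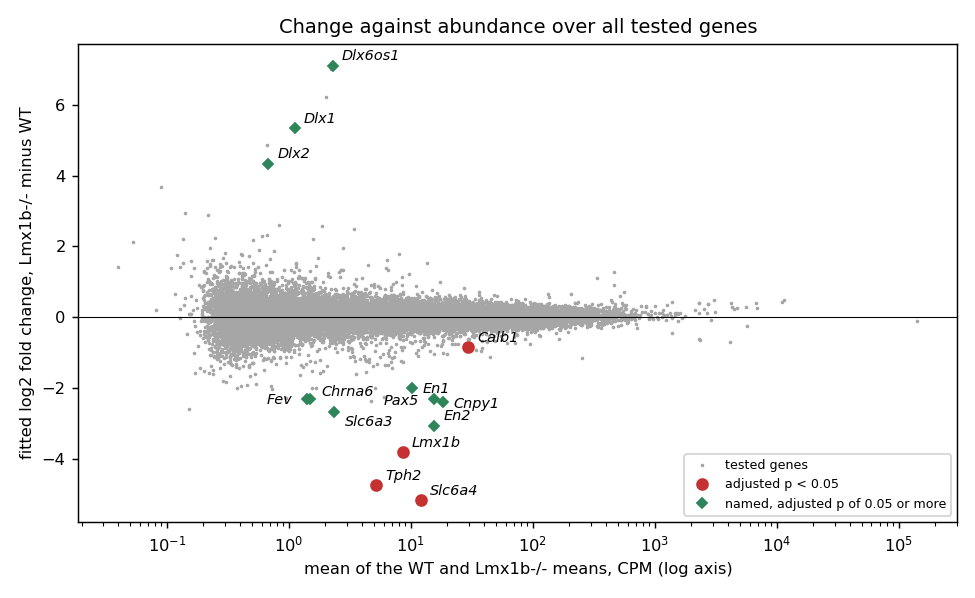
Fitted log2 fold change (Lmx1b-/- minus WT, vertical axis) against mean level in CPM (log horizontal axis) for the 21729 tested genes. Red points are the 4 DEGs, of which Slc6a4 (−5.18), Tph2 (−4.75) and Lmx1b (−3.82) lie lowest, and green points are named genes with an adjusted p of 0.05 or more, with Dlx6os1 (7.10) and Dlx1 (5.33) among the highest.

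The deepest loss was in genes that carry serotonergic identity. Slc6a4 (ENSMUSG00000020838), the serotonin transporter that takes serotonin back into the neuron, held 24.2, 21.9 and 24.2 CPM in WT 1 to 3 against 0.484, 0.772 and 0.663 CPM in Lmx1b-/- 1 to 3. The lowest WT library stood 28.3-fold above the highest null library. It fell from 23.5 ± 1.36 CPM to 0.64 ± 0.145 CPM (SD, n = 3 each), a 36.7-fold difference. On the log2 scale it fell by 5.18 (SE 0.25), with an adjusted p of 5.88e-07 by the quasi-likelihood test. Tph2 (ENSMUSG00000006764), the tryptophan hydroxylase that sets the rate of serotonin synthesis in neurons, held 11.6, 8.9 and 9.85 CPM against 0.42, 0.446 and 0.265 CPM. Its groups lay 20-fold apart at their nearest libraries. Tph2 fell by 4.75 on the log2 scale (SE 0.35, quasi-likelihood adjusted p = 4.8e-05), from 10.1 ± 1.35 CPM to 0.377 ± 0.0976 CPM (SD, n = 3 each), a 26.8-fold difference. Both genes were DEGs under all 22 alternatives of the processing. The Lmx1b+/- libraries held 13.7, 17.6 and 25.7 CPM of Slc6a4 and 7.67, 8.9 and 17.4 CPM of Tph2. Some genes described below were not at the WT level there. Slc6a3 had a mean of 0.584 CPM in Lmx1b+/- and 0.638 CPM in Lmx1b-/-, against 4.09 CPM in WT. Rora had means of 29.9, 37.5 and 60.5 CPM in that order, while Prrxl1 had 27, 3.69 and 9.46 CPM.

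Neither gene was at 0 in the null libraries. Slc6a4 kept 15, 26 and 25 counts there, or 2.06%, 3.29% and 2.83% of the WT mean, and Tph2 kept 13, 15 and 10 counts, or 4.15%, 4.41% and 2.62%. Genes that a female library should lack give a scale for such small remainders. The sum of 4 Y-linked genes (Kdm5d, Uty, Ddx3y and Eif2s3y) in the Xist-high libraries was 5.31% of its mean over the Xist-low libraries in WT 2, 3.1% in Lmx1b-/- 2 and 0.236% in Lmx1b-/- 3. The remaining share of both serotonergic genes was thus above that of the Y-linked genes in Lmx1b-/- 3 and of a like size in Lmx1b-/- 2. Where the remaining counts came from was not tested.

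Fev (ENSMUSG00000055197), the ETS factor Pet-1 that acts with Lmx1b in the terminal serotonergic program, came next in depth among them. WT libraries held 2.71, 1.59 and 2.7 CPM and null libraries 0.42, 0.505 and 0.477 CPM, with no overlap and 20% of the WT mean remaining. Its log2 fold change of −2.31 (SE 0.35) missed the threshold in the fit of 9 libraries (quasi-likelihood adjusted p = 0.0758). It passed in the fit of 6 libraries (quasi-likelihood adjusted p = 0.0318) and in DESeq2 (adjusted p = 7.01e-06). Fev kept 18%, 21.6% and 20.4% of its WT mean in the 3 null libraries, in each a larger share than Slc6a4 or Tph2.

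Promoters of these 3 genes are printed because they were the deepest in the serotonergic list and Lmx1b binds DNA through a homeodomain, whose core is TAAT on either strand. Each runs 5′ to 3′ on the gene's strand over 300 bases, from 250 before to 50 after the start given by RefSeq on GRCm38.p6, with TAAT or its reverse complement ATTA in capitals. Slc6a4 lies at chr11:76998347-76998646 on the plus strand, Tph2 at chr10:115184973-115185272 on the minus strand and Fev at chr1:74885359-74885658 on the minus strand.
Slc6a4: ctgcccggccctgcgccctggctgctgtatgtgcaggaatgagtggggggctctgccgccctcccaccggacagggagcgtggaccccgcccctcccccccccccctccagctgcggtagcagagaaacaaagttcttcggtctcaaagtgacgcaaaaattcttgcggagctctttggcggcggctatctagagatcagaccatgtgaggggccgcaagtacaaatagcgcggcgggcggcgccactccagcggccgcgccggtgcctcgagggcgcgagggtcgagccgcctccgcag
Tph2: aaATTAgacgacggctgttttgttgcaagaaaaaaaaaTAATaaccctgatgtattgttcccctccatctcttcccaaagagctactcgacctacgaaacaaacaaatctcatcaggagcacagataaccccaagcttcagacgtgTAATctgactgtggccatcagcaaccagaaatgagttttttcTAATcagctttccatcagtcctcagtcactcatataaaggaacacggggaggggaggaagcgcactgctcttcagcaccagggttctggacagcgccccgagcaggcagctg
Fev: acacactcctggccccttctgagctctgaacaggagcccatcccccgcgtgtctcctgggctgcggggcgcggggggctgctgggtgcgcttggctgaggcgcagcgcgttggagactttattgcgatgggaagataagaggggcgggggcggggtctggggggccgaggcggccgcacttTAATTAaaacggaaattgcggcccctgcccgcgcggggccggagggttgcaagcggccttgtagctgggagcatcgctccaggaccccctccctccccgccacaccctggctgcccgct
The Slc6a4 window holds 0 matches and the Tph2 window 4. In the Fev window 2 overlapping matches make up the palindrome TAATTA, with its first base at −69 from the start, inside the longer palindrome TTAATTAA. TAAT is found in 58% of all 32851 promoters of this length in the table, TAATTA in 5.29% and TTAATTAA in 0.615%. Of the 18 serotonergic genes described here 15 were in the table, 7 with TAAT and 2 with TAATTA, the other being a start of Slc17a8. A match describes the letters of this window only, and the sequence is of another build than the one in the submitters' notes.

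Over the list of 18 serotonergic genes, all of which were tested, 2 were DEGs. At an unadjusted p under 0.05 there were 9 lower genes, where 2.54% of all tested genes were, and 0 higher. The same 9 did not overlap between the genotypes, where 18% of all tested genes were apart, 11.9% on the higher side and 6.09% on the lower. The list's median log2 fold change was −0.48. DESeq2 called 6 of the 18, and the fit of 6 libraries 3.

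Genes of monoamine handling lay at intermediate depth. For Gch1, the enzyme that starts synthesis of the hydroxylase cofactor tetrahydrobiopterin, WT libraries held 6.89, 5.65 and 4.37 CPM and null libraries 2.87, 2.44 and 2.62 CPM (log2 fold change −1.09 with an SE of 0.19, adjusted p = 0.138 by the quasi-likelihood test). Its regulator Gchfr ranged over 0.485 to 1.22 CPM and 0.258 to 0.451 CPM. Ddc, the decarboxylase shared by all monoamine neurons, had 9, 3.95 and 9.98 CPM against 3.52, 3.77 and 3.23 CPM, so that WT 2 lay next to the null libraries. The vesicular monoamine transporter Slc18a2 ranged over 17.6 to 27.8 CPM in WT and 14 to 14.5 CPM in Lmx1b-/-. The organic cation transporter Slc22a3 (log2 fold change −0.73) and the zinc finger factor Insm1 (−0.92) completed the 9. Gch1, Gchfr, Ddc, Slc18a2, Slc22a3 and Insm1 each had an adjusted p over 0.05 and are named after their values were seen.

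The other 9 serotonergic genes overlapped between the genotypes. They included factors that act early in the raphe lineage: Nkx2-2 ranged over 5.49 to 6.62 CPM in WT and 6.04 to 7.37 CPM in Lmx1b-/-, Gata2 over 7.1 to 12.1 and 11.1 to 12.9 CPM, and Gata3 over 10.9 to 26.5 and 14.2 to 20.2 CPM. Gata3 had a log2 fold change of −0.29 (SE 0.30, quasi-likelihood adjusted p = 0.81). The receptors Htr1a, Htr1b and Htr5b, which other neurons also express, had log2 fold changes of −0.04, 0.03 and −0.01. The vesicular glutamate transporter Slc17a8, the monoamine oxidase Maob and the pterin reductase Qdpr were likewise not separated. The plot of serotonergic genes shows this spread inside the list.

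**Figure D2:**
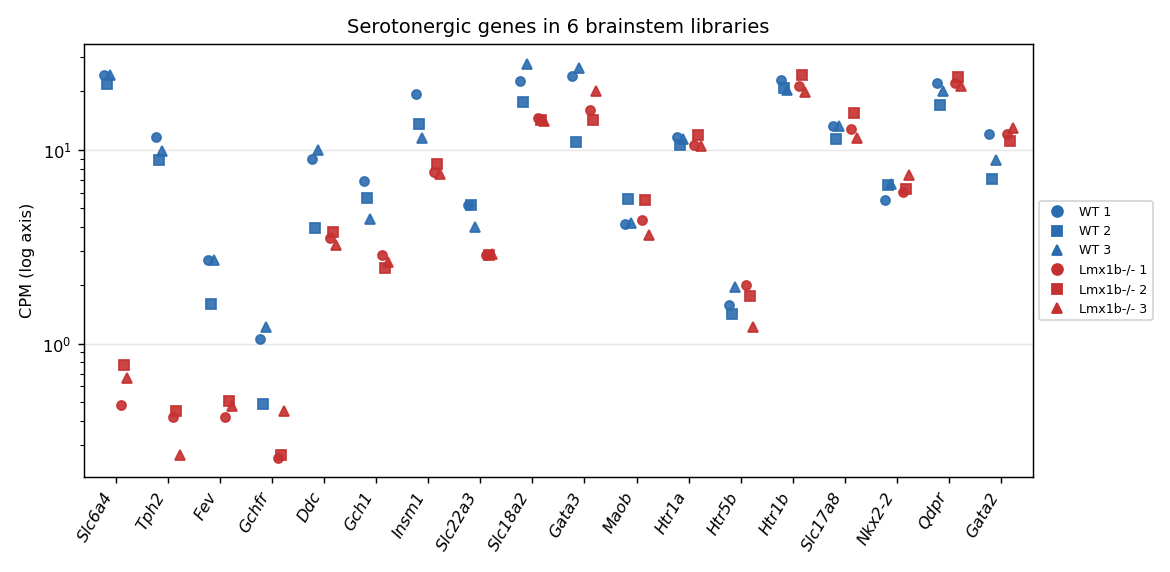
CPM (log vertical axis) of the 18 serotonergic genes in WT 1 to 3 (blue) and Lmx1b-/- 1 to 3 (red), 1 point per library, ordered by fitted log2 fold change from Slc6a4 (−5.18) to Gata2 (0.36). Slc6a4 lies at 21.9 to 24.2 CPM in WT and 0.484 to 0.772 CPM in Lmx1b-/-, and the 9 genes on the right overlap.

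Genes of the isthmus and midbrain formed the next set of low values. En2, an engrailed homeobox gene of the midbrain and anterior hindbrain, held 39.9, 12.1 and 31.6 CPM in WT 1 to 3 against 2.49, 3.33 and 4.08 CPM in Lmx1b-/- 1 to 3. That is an 8.45-fold difference of the means (log2 fold change −3.07 with an SE of 0.63, adjusted p = 0.332 by the quasi-likelihood test). Its paralog En1 held 21.9, 6.72 and 20.2 CPM against 3.97, 4.31 and 4 CPM, with a log2 fold change of −1.99 (SE 0.37, quasi-likelihood adjusted p = 0.246). Both genes were lower in every null library than in any WT library, by 2.96-fold for En2 and 1.56-fold for En1 at the nearest pair. For Cnpy1, a modulator of fibroblast growth factor signalling at the isthmus, WT libraries held 32.2, 22.3 and 37.9 CPM and null libraries 3.13, 5.38 and 8.85 CPM. The fitted log2 fold change of −2.40 had an SE of 0.56 and an adjusted p of 0.491 by the quasi-likelihood test. Pax5, a paired-box factor of the isthmus, had 33.5, 5.85 and 38.4 CPM against 4.23, 5.46 and 5.81 CPM, so that WT 2 and Lmx1b-/- 3 were 1.01-fold apart. The growth factor Fgf15 had 6.23, 8.55 and 8.16 CPM against 2.32, 3.59 and 3.15 CPM, with no low value in WT 2. Cnpy1, Pax5 and Fgf15 are named after their values were seen.

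Of the 28 genes of this list 26 were tested and 0 were DEGs, with 7 lower and 0 higher at an unadjusted p under 0.05, and 9 lower without overlap. Among all tested genes 2.54% were lower at that p and 6.09% lower without overlap. DESeq2 called 2 of them (Fgf15 and En1) and the fit of 6 libraries 3 (Fgf15, En2 and Cnpy1). The median log2 fold change was −0.25. Fgf8, the main organizer signal, did not pass the filter and stood at 0.203 to 0.416 CPM in WT and 0.0265 to 0.194 CPM in Lmx1b-/-, from at most 12 counts in any of the 6 libraries. Wnt1, a midbrain signal of the same border, overlapped at 0.381 to 0.844 and 0.594 to 0.71 CPM. Genes that respond to fibroblast growth factors had log2 fold changes of −0.37 for Spry4, −0.28 for Dusp6 and −0.28 for Spry1. Those of Etv5, Spry2 and Etv4 were −0.22, −0.08 and 0.05. Dusp6, Spry1 and Etv5 were lower without overlap, while Spry4, Spry2 and Etv4 overlapped. The border factors Otx2 and Gbx2 had log2 fold changes of −0.20 and 0.26.

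Genes that mark position along the brainstem differed between libraries of one genotype. WT 2 was the WT library poorest in anterior genes: its summed level of 14 diencephalic and hypothalamic genes was 81.3 CPM, against 237 and 238 CPM in WT 1 and 3. Its summed level of 15 hindbrain Hox genes was 332 CPM, against 182 and 157 CPM. The null libraries had 117, 66.4 and 169 CPM of the first list and 234, 316 and 300 CPM of the second. Pax7, a midbrain gene, was lowest in replicate 2 of each genotype like the first list, with 14.8, 1.87 and 17.4 CPM in WT against 4.94, 2.44 and 11.5 CPM in Lmx1b-/-. Among the WT libraries En1, En2, Cnpy1 and Pax5 were lowest in WT 2. In Lmx1b-/- 1 to 3 En1 was at 3.97, 4.31 and 4 CPM and En2 at 2.49, 3.33 and 4.08 CPM. The diencephalic sum was lowest in Lmx1b-/- 2. A fit of the libraries low in Xist alone, chosen after the data were seen, had 2 of WT and only 1 of Lmx1b-/-, whose spread is assumed to be that of the other groups. Under that assumption En1, En2 and Cnpy1 passed the quasi-likelihood test, among 7 genes called of all tested (0.0304%), 5 lower (0.0217%) and 2 higher (0.0087%). Without WT 2, En1 passed (quasi-likelihood adjusted p = 0.00605) and En2 did not (quasi-likelihood adjusted p = 0.148). The part that the level of the dissection had in these values was not tested.

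**Figure D3:**
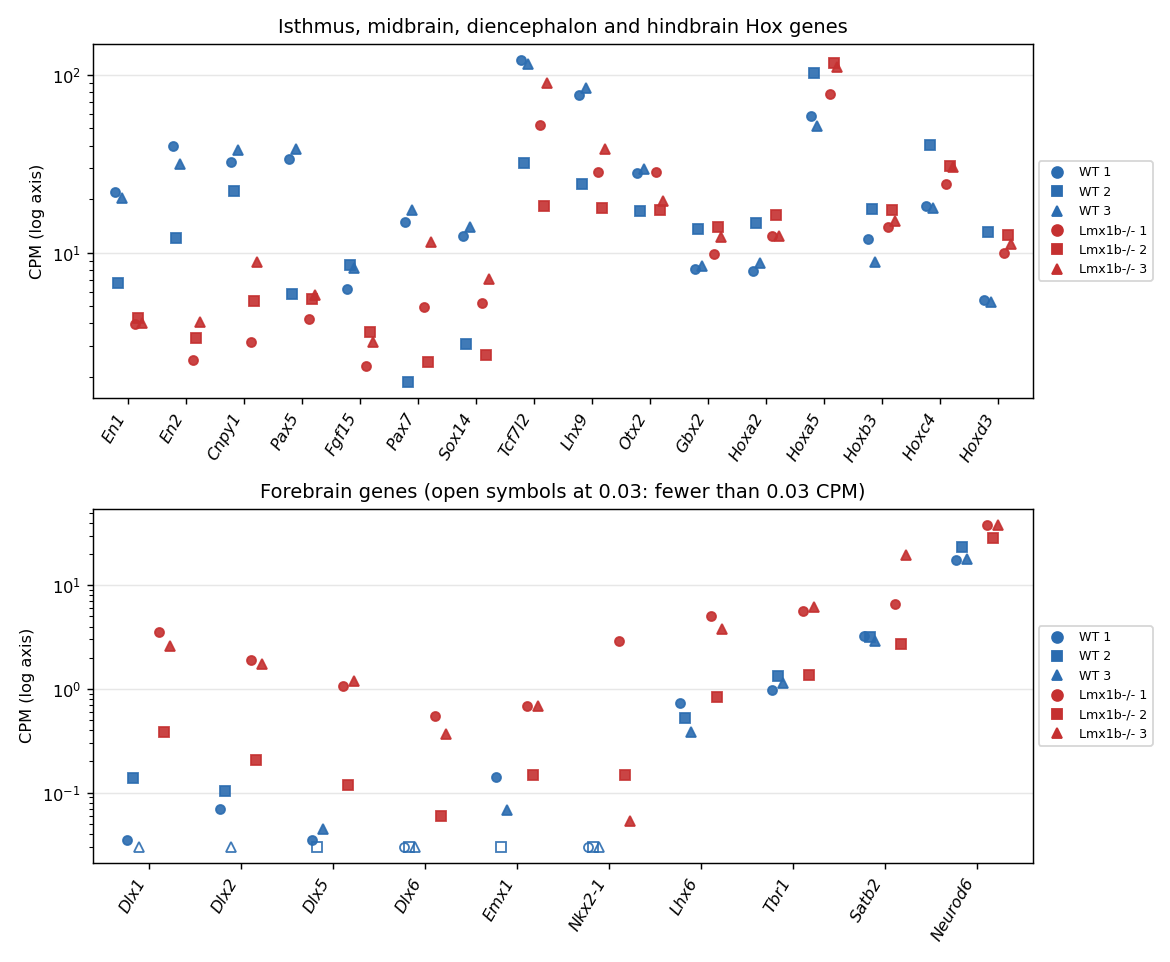
CPM (log vertical axes) of isthmic, midbrain, diencephalic and Hox genes (above) and of forebrain genes (below) in WT 1 to 3 (blue) and Lmx1b-/- 1 to 3 (red), 1 point per library, with open symbols for values too low for the axis. En2 lies at 12.1 to 39.9 CPM in WT and 2.49 to 4.08 CPM in Lmx1b-/-, WT 2 (blue squares) is low for Pax7 and Tcf7l2, and Lmx1b-/- 2 (red squares) is the lowest null library for the Dlx genes.

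Among midbrain dopaminergic genes several transmitter genes were low, while the factors that passed the filter overlapped between the genotypes. The receptor genes Drd2, Ret and Gfra1 overlapped too. The dopamine transporter Slc6a3 held 6.05, 0.935 and 5.3 CPM in WT 1 to 3 against 0.581, 0.564 and 0.769 CPM in Lmx1b-/- 1 to 3 (log2 fold change −2.67 with an SE of 0.57, adjusted p = 0.332 by the quasi-likelihood test). For Th, the tyrosine hydroxylase of dopamine and noradrenaline synthesis, WT libraries held 7.32, 2.42 and 6.35 CPM and null libraries 1.52, 2.35 and 1.41 CPM (log2 fold change −1.61 with an SE of 0.34, adjusted p = 0.332 by the quasi-likelihood test). The nicotinic receptor subunit Chrna6 had 2.29, 1.18 and 4.06 CPM against 0.517, 0.416 and 0.583 CPM. In each of these genes WT 2 was the lowest WT library, at 1.22-fold (Slc6a3), 1.03-fold (Th) and 2.02-fold (Chrna6) the highest null library. Without WT 2 they passed, with quasi-likelihood adjusted p-values of 0.00708 for Slc6a3, 0.00806 for Th and 0.00735 for Chrna6, in a set of 10 called genes (0.0446% of those tested) that also held Ddc, En1, Fev and Pitx1. Chrnb3, another nicotinic subunit, and Aldh1a1, a retinaldehyde dehydrogenase of ventral dopamine neurons, had log2 fold changes of −2.04 and −1.44 with overlapping ranges. Chrna6, Chrnb3 and Aldh1a1 are named after their values were seen.

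The factors of the same lineage overlapped. Nr4a2, the nuclear receptor Nurr1, had 12.5, 11.1 and 14.7 CPM in WT against 14.1, 13.8 and 21 CPM in Lmx1b-/- (log2 fold change 0.35 with an SE of 0.24, adjusted p = 0.701 by the quasi-likelihood test). Lmx1a, the paralog of Lmx1b, ranged over 4.19 to 6.79 CPM and 3.31 to 5.39 CPM (log2 fold change −0.15, SE 0.44), and Foxa1 and Foxa2 had log2 fold changes of 0.01 and −0.04. Pitx3, a homeobox factor of these neurons, did not pass the filter. It had 0.739, 0.0346 and 0.518 CPM in WT against 0.194, 0.0891 and 0.0265 CPM in Lmx1b-/-, and the groups overlapped through WT 2. Its null mean was 24% of the WT mean, from few counts, so this factor was low like the transmitter genes. Of 21 genes on the list 20 were tested and 0 were DEGs, with 8 lower and 1 higher (Sncg) at an unadjusted p under 0.05 and 6 lower without overlap. The shares of all tested genes were 2.54% lower and 5.55% higher at that p, and 6.09% lower without overlap. DESeq2 called 4 of them (Th, Ddc, Slc18a2 and Chrna6) and the fit of 6 libraries 0.

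Of the 14 noradrenergic genes 12 had fitted values below 0, as had 10410 of all 21729 tested genes. From this list 4 are shared with the serotonergic or dopaminergic lists (Ddc, Slc18a2, Insm1 and Th). Dbh, the enzyme that makes noradrenaline from dopamine, held 6.65, 5.26 and 8.43 CPM in WT against 3.29, 4.31 and 2.86 CPM in Lmx1b-/-, without overlap (log2 fold change −0.96 with an SE of 0.35, adjusted p = 0.544 by the quasi-likelihood test). The noradrenaline transporter Slc6a2 had 14.6, 5.51 and 16.7 CPM against 3.49, 7.78 and 4.14 CPM, and the groups overlapped through WT 2. Phox2a, a homeobox factor that specifies noradrenergic neurons, had a log2 fold change of −0.14 (SE 0.20), with ranges of 2.01 to 2.64 CPM in WT and 1.91 to 2.26 CPM in Lmx1b-/-. Pnmt, the enzyme that makes adrenaline, went the other way at low abundance, with 0.387, 0.762 and 0.496 CPM in WT and 1.23, 1.54 and 0.822 CPM in the null libraries (quasi-likelihood adjusted p = 0.543). All 14 genes were tested and 0 were DEGs, with 9 lower and 1 higher at an unadjusted p under 0.05, and the median log2 fold change was −0.55. At that p 2.54% of all tested genes were lower and 5.55% higher. DESeq2 called 3 (Th, Ddc and Slc18a2), all of them also on the dopaminergic list, and the fit of 6 libraries called 0. Slc6a2 and Pnmt are named after their values were seen.

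**Figure D4:**
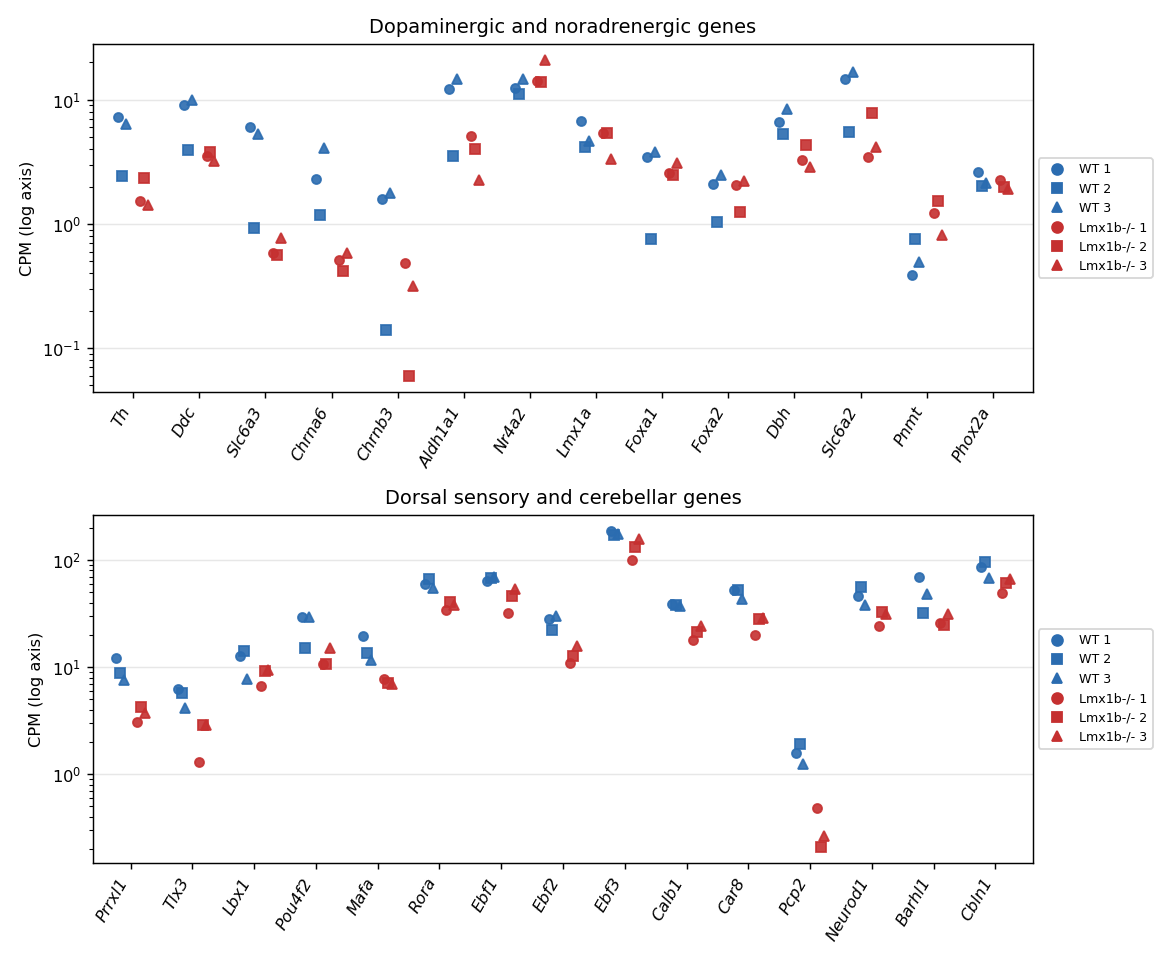
CPM (log vertical axes) of dopaminergic and noradrenergic genes (above) and of dorsal sensory and cerebellar genes (below) in WT 1 to 3 (blue) and Lmx1b-/- 1 to 3 (red), 1 point per library. Slc6a3 lies at 0.935 to 6.05 CPM in WT, with WT 2 lowest, and at 0.564 to 0.769 CPM in Lmx1b-/-, while Nr4a2 and Phox2a overlap.

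Factors of dorsal sensory neurons were also among the low values. Prrxl1 (also Drgx), a paired homeobox gene of relay neurons that receive somatosensory input, held 12.1, 8.73 and 7.53 CPM in WT 1 to 3 against 3.1, 4.22 and 3.74 CPM in Lmx1b-/- 1 to 3, 38.9% of the WT mean (log2 fold change −1.35 with an SE of 0.42, adjusted p = 0.532 by the quasi-likelihood test). For Tlx3, a selector of glutamatergic over GABAergic fate, WT libraries held 6.19, 5.75 and 4.19 CPM and null libraries 1.29, 2.85 and 2.89 CPM (log2 fold change −1.18 with an SE of 0.36, adjusted p = 0.532 by the quasi-likelihood test). Lbx1, which marks a wider class of dorsal neurons, overlapped at 7.68 to 14.2 and 6.62 to 9.36 CPM. The nuclear receptor Rora had 59.6, 66.7 and 55.1 CPM against 34, 40.4 and 38.2 CPM, and the leucine zipper factor Mafa 19.5, 13.5 and 11.6 CPM against 7.78, 7.04 and 7 CPM. Ebf2, a helix-loop-helix factor of differentiating neurons, had 28.3, 22.1 and 30.1 CPM against 10.9, 12.8 and 15.7 CPM, and its relatives Ebf1 and Ebf3 were at 65.2% and 73.3% of the WT mean. The genotypes did not overlap for Prrxl1, Tlx3, Rora, Mafa or Ebf2. Over the list, 25 of 26 genes were tested and 0 were DEGs, with 8 lower and 0 higher at an unadjusted p under 0.05, and 9 lower and 1 higher (Tlx1) without overlap. Among all tested genes 2.54% were lower at that p, and 6.09% lower and 11.9% higher without overlap. DESeq2 called 2 (Ebf2 and Rora) and the fit of 6 libraries 2 (Prrxl1 and Rora). Which cells of this bulk tissue these genes came from, those of the cerebellum included, was not tested. Rora, Mafa and the Ebf genes are named after their values were seen.

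Calb1 (ENSMUSG00000028222), the calcium-binding protein calbindin, was the 1 DEG that changed less than 2-fold. WT 1 to 3 held 39.2, 38.3 and 37.2 CPM and Lmx1b-/- 1 to 3 held 18, 21.4 and 24.1 CPM, with no overlap and little spread in WT. Lmx1b+/- 1 to 3 held 27.4, 23.1 and 22.5 CPM, also below every WT library. Calb1 fell by 0.85 on the log2 scale (SE 0.12, quasi-likelihood adjusted p = 0.0429), from 38.2 ± 1.01 to 21.1 ± 3.05 CPM (SD, n = 3 each). Its adjusted p was under 0.05 in 12 of 22 alternatives. These include the stricter thresholds, an adjusted p under 0.01 and a change of at least 2-fold, neither of which Calb1 met. The call was lost with the sex block (quasi-likelihood adjusted p = 0.0759) and the replicate block (quasi-likelihood adjusted p = 0.118). It was also lost when any WT or Lmx1b-/- library but Lmx1b-/- 3 was left out, with quasi-likelihood adjusted p-values from 0.0411 to 0.334 over the 6 fits.

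Calbindin marks Purkinje cells among other neurons, and other genes of the cerebellar list were low with it. Car8, abundant in Purkinje cells, had 52.6, 52.9 and 43.7 CPM in WT against 19.9, 27.9 and 29 CPM in Lmx1b-/-, and the Purkinje gene Pcp2 1.58, 1.9 and 1.24 CPM against 0.484, 0.208 and 0.265 CPM. Among genes of the granule cell lineage, Neurod1 ranged over 38.2 to 55.9 and 24.2 to 32.7 CPM, Barhl1 over 32.1 to 70 and 24.5 to 31.7 CPM, and Cbln1 over 67.6 to 96.2 and 49.2 to 66.7 CPM. Atoh1, which marks their rhombic lip progenitors, and Zic1 overlapped. Of 19 cerebellar genes 18 were tested and 1 was a DEG (Calb1), with 8 lower and 0 higher at an unadjusted p under 0.05, 9 lower without overlap and a median log2 fold change of −0.41. The shares of all tested genes were 2.54% lower at that p and 6.09% lower without overlap. DESeq2 called 3 (Calb1, Pcp2 and Car8) and the fit of 6 libraries 2 (Calb1 and Car8). How much cerebellum each sample held is not given in the sources used here, and its part in these values was not tested. The cerebellar genes other than Calb1 are named after their values were seen.

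Of the 23 respiratory circuit genes, all of them tested, 0 were DEGs by the quasi-likelihood test, DESeq2 or the fit of 6 libraries, with 5 lower (Tlx3, Evx2, Foxp2, Sst and Dbx1) and 0 higher at an unadjusted p under 0.05, where 2.54% of all tested genes were lower. Of the 5, all but Dbx1 did not overlap. Dbx1, whose progenitors give rise to preBötzinger neurons, overlapped at 0.416 to 1.35 and 0.356 to 0.613 CPM. Tacr1, the substance P receptor of rhythm-generating neurons, ranged over 10.5 to 12 and 11.9 to 14.4 CPM. The bombesin-like peptide genes Nmb and Grp, their receptors Nmbr and Grpr and the proton sensor Gpr4 all overlapped.

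Transmitter classes other than the monoamines overlapped in their main genes. The glutamate transporter Slc17a6 had 227, 235 and 244 CPM in WT against 235, 279 and 258 CPM in Lmx1b-/-, and the GABA synthesis gene Gad1 140, 133 and 152 CPM against 120, 139 and 153 CPM. Slc6a5, the glycine transporter of hindbrain neurons, had 60.2, 129 and 51.2 CPM against 99.5, 103 and 86.6 CPM, with WT 2 highest. The 4 glutamatergic, 15 tested GABA and glycine and 15 tested cholinergic and motor genes held 0 DEGs by the quasi-likelihood test, DESeq2 or the fit of 6 libraries. They had 0, 1 and 2 genes at an unadjusted p under 0.05, and their median log2 fold changes were 0.02, −0.18 and 0.21. Of 28 neuropeptide genes 21 were tested and 0 were DEGs, with Calca and Calcb higher and Sst lower at an unadjusted p under 0.05. Cck had 8.79, 8.62 and 8.88 CPM against 4.91, 4.96 and 4.82 CPM, and passed in the fit of 6 libraries (quasi-likelihood adjusted p = 0.0418) and not in that of 9 (quasi-likelihood adjusted p = 0.627) or in DESeq2.

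**Figure D5:**
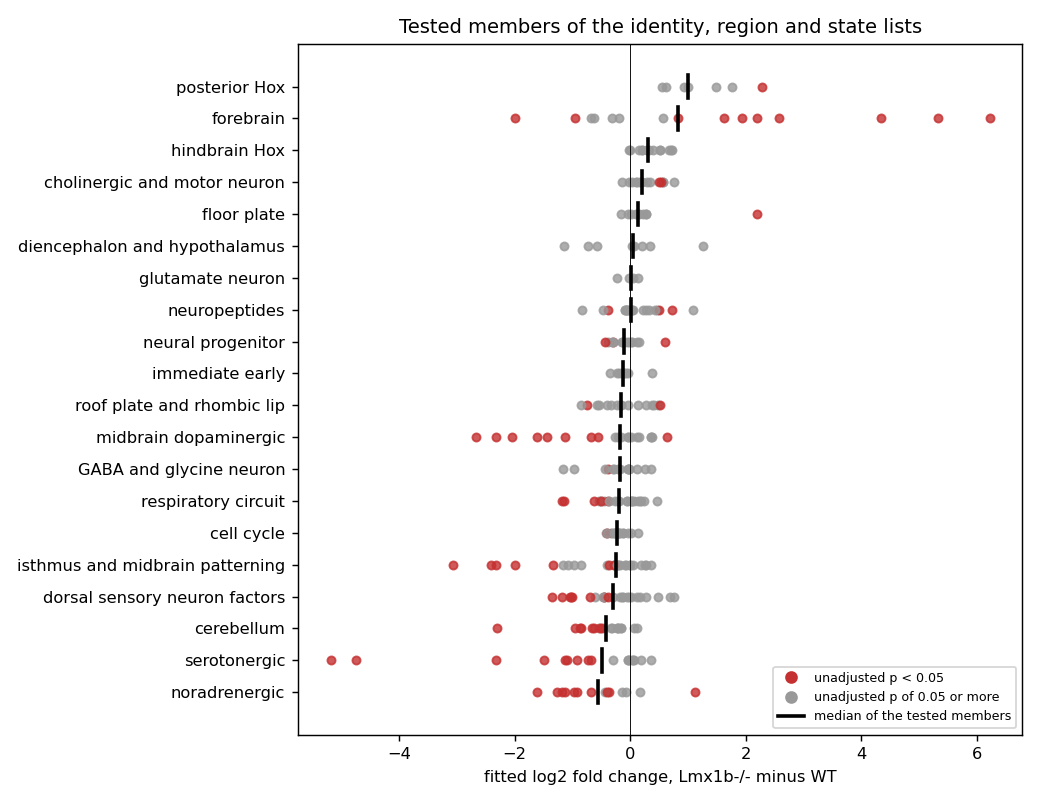
Fitted log2 fold change (Lmx1b-/- minus WT, horizontal axis) of every tested gene in the lists of neuron identity, brain region and cell state, 1 point per gene, with red for an unadjusted p under 0.05 and a black bar at each list's median. The serotonergic list reaches −5.18 with a median of −0.48, the noradrenergic list lies lowest by its median (−0.55), and the forebrain list holds the highest points, with Dlx1 at 5.33.

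Forebrain genes were the main group on the higher side, and 2 libraries carried them. Dlx1, a homeobox gene of forebrain interneuron progenitors, had 1, 4 and 0 counts in WT 1 to 3 and 111, 13 and 97 counts in Lmx1b-/- 1 to 3, or 3.58, 0.386 and 2.57 CPM in the latter. Dlx6os1, a long RNA of the Dlx5 and Dlx6 locus, had 0, 1 and 2 counts and 245, 11 and 205 counts, or 7.91, 0.327 and 5.43 CPM, and without a known strand setting its reads may not be separable from those of Dlx6. The groups did not overlap for either gene, and Lmx1b-/- 2 held 0.125 of the mean of the other null libraries for Dlx1. Their quasi-likelihood adjusted p was 0.138 each, and their fitted log2 fold changes of 5.33 and 7.10 depend on the prior count because WT is near the counting limit. Lhx6, an interneuron factor, had 5.07, 0.832 and 3.76 CPM in Lmx1b-/- 1 to 3, against a WT maximum of 0.739 CPM. Tbr1, a factor of cortical glutamatergic neurons, had 5.65, 1.37 and 6.23 CPM against a WT maximum of 1.32 CPM. Nkx2-1, a ventral forebrain factor, had 0, 0 and 0 counts in WT and 90, 5 and 2 counts in Lmx1b-/-, nearly all in 1 library. These forebrain genes are named after their values were seen.

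Of 24 forebrain genes 15 were tested and 0 were DEGs, with 8 higher and 2 lower at an unadjusted p under 0.05, where 5.55% and 2.54% of all tested genes were. Some of the 8, such as Dlx1 and Dlx2, had at most 4 and 3 counts in any WT library. They passed the filter through libraries of other genotypes, so these shares are not an even scale for this list. DESeq2 called 5, all higher (Neurod6, Lhx6 and Dlx1 among them), and the fit of 6 libraries 0. Without Lmx1b-/- 2 the quasi-likelihood test called 11 genes (0.0492%), 3 lower (0.0134%) and 8 higher (0.0358%). Among the higher ones were Lhx6, Tbr1, Dlx1, Dlx2, Dlx5 and Dlx6os1. Other genes of the forebrain list overlapped through WT 2. Six3, a gene of the anterior neural plate, had 10.9, 1.35 and 12.1 CPM in WT against 2.97, 0.327 and 2.84 CPM in Lmx1b-/-, and Emx2 6.93, 0.658 and 8.09 CPM against 3.45, 1.46 and 5.3 CPM. The summed level of the 24 genes overlapped, at 141 to 198 CPM and 118 to 208 CPM. Neurod6, a neuronal differentiation factor, had 17.4, 23.6 and 18 CPM in WT against 38.3, 28.3 and 38 CPM in Lmx1b-/-, with no overlap and the smallest gap in Lmx1b-/- 2.

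Among hindbrain Hox genes, 14 of 15 were tested and 0 were DEGs by the quasi-likelihood test, DESeq2 or the fit of 6 libraries. Their median log2 fold change was 0.31, 13 fitted values were above 0, and 0 genes had an unadjusted p under 0.05. Hoxa2 had 14.6 CPM in WT 2, within the null range of 12.4 to 16.3 CPM, against 7.91 and 8.74 CPM in the other WT libraries. Of 24 more posterior Hox genes 7 were tested, with a median of 1.00. Hoxa7 was the 1 that did not overlap, with 0.0703, 0.346 and 0.203 CPM in WT against 0.613, 1.1 and 1.33 CPM in Lmx1b-/- (log2 fold change 2.28, SE 0.78), and it is named after its values were seen. Of 8 tested diencephalic genes 0 had an unadjusted p under 0.05.

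Lists of the floor plate, roof plate, progenitors and cell cycle are read against the 8.09% of all tested genes with an unadjusted p under 0.05. The floor plate genes Shh and Ntn1 had log2 fold changes of 0.28 and 0.28, and of 11 tested genes 1 had an unadjusted p under 0.05. Of 16 roof plate and rhombic lip genes 1 was higher (Rspo3) and 1 lower (Gdf10, at 21.5 to 35.8 and 14.7 to 18.4 CPM) by that measure. Among 15 tested progenitor genes Fabp7, the radial glial lipid-binding protein, ranged over 407 to 431 and 584 to 691 CPM, and Vim and Sox3 were lower at an unadjusted p under 0.05. With these 3 of 15 by that measure, the progenitor list had 1 gene higher and 3 lower without overlap. Of 18 cell cycle genes 1 (Plk1) had an unadjusted p under 0.05, with 16 fitted values below 0 and a median of −0.22. Without overlap were 10 of the 18, all lower (Ccnb1, Ccna2, Aurkb, Bub1, Plk1, Mcm2, Mcm3, Rrm2, Tyms and Birc5), where 6.09% of all tested genes were, and their log2 fold changes lay between −0.42 and −0.17. DEGs in these lists numbered 0 by the quasi-likelihood test and by the fit of 6 libraries, and DESeq2 called 1.

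Markers of other cells can travel with a dissection and were measured for that reason. They are read against all tested genes, of which 5.55% were higher and 2.54% lower at an unadjusted p under 0.05. By overlap, 6.09% of all tested genes were lower in every null library. Of 12 endothelial and pericyte genes 8 were lower at an unadjusted p under 0.05 without overlap, and Kdr, the main receptor for vascular endothelial growth factor, had 42.5, 36.2 and 34.4 CPM in WT against 26.7, 25.9 and 25.1 CPM in Lmx1b-/-. Their summed level was 351 to 424 CPM in WT and 308 to 324 CPM in Lmx1b-/-. The oligodendrocyte list had 4 of 11 genes higher at an unadjusted p under 0.05 (Sox10, Gpr17 and Cnp among them), with sums of 473 to 570 and 582 to 610 CPM, and the astrocyte list 2 of 10 (Gfap and S100b). Choroid plexus genes summed to 471, 320 and 415 CPM in WT and to 1500, 860 and 187 CPM in Lmx1b-/-, with 0 of 12 genes at an unadjusted p under 0.05. Erythroid sums were 510 to 1250 and 1060 to 2380 CPM, with 3 of 8 tested genes higher by that measure, and meningeal sums 643 to 821 and 357 to 774 CPM, with 2 of 12 lower. Microglial sums were 102 to 126 and 93.9 to 136 CPM, and skeletal muscle sums 37.4 to 43.9 and 36.1 to 45.3 CPM, with 1 gene each at an unadjusted p under 0.05. The pituitary hormone Gh had 0, 3 and 0 counts in WT and 344, 68 and 3 counts in Lmx1b-/-. Lists of cartilage and bone, of sensory ganglia and Schwann cells and of epithelium and pituitary had 2, 2 and 1 genes higher, and immediate early genes 0. All of these lists held 0 DEGs by the quasi-likelihood test, by DESeq2 and by the fit of 6 libraries, and their part in the results above was not tested.

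By abundance, the DEGs came from the middle of the range. Among 4605 tested genes with a mean under 1 CPM over the 9 libraries, 0 were DEGs by the quasi-likelihood test, 4.5% had an unadjusted p under 0.05, and the median SE of the log2 fold change was 0.43. From 1 to 10 CPM 1 of 6649 genes was a DEG (Tph2), from 10 to 100 CPM 3 of 8843, and at 100 CPM and over 0 of 1632. Shares at an unadjusted p under 0.05 were 7.93%, 10.1% and 7.78% in these tiers, with median SEs of 0.21, 0.12 and 0.11. Differences of 2-fold or more without overlap lay mostly in the lowest tier: 61 genes were higher and 53 lower there, 2.48% of the tier, against 0.815% of all tested genes (0.405% higher and 0.41% lower).

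Genes that went from detected to undetected were few and faint. At or below 3 counts in every null library and above it in every WT library were 59 genes, 0.144% of the 40964 with any count, and the reverse held for 61, or 0.149%. Of the 59, 0 passed the filter, and their highest WT mean was 0.461 CPM. The 6 named ones with the highest WT mean were Neurog1, Olfr1535, Cd300lg, Plin1, Npb and Tgm5. Neurog1, a proneural factor of sensory neurons and the dorsal hindbrain, had 11, 8 and 8 counts in WT and 0, 2 and 3 counts in Lmx1b-/-. Among the 6 highest on the gained side were Dlx6os1, Dlx2, Otor, Dlx5 and Crygn, of which the Dlx genes belong to the forebrain set. Otor, a gene of cartilage and inner ear, had 5, 119 and 6 counts in Lmx1b-/- 1 to 3, nearly all of them in 1 library. Slc6a4, Tph2 and Lmx1b are not among the lost genes, since each stayed above 3 counts in every null library.

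Further genes that DESeq2 called, named after their values were seen, had modest differences. On the lower side, Nhlh1, a helix-loop-helix factor of newborn neurons, had 9.22, 8.1 and 6.67 CPM in WT against 2.91, 4.54 and 4.14 CPM in Lmx1b-/- (DESeq2 adjusted p = 0.00315). Kirrel2, a cell adhesion molecule, had 3.83, 2.22 and 2.41 CPM against 0.387, 1.07 and 1.46 CPM (DESeq2 adjusted p = 0.0377). The phosphodiesterase Pde1c had 65.6, 94.7 and 68.6 CPM against 38, 52.9 and 47.3 CPM (DESeq2 adjusted p = 0.0246). On the higher side the lipid-binding proteins Fabp5 and Dbi ranged over 98.5 to 117 and 152 to 179 CPM, and over 101 to 108 and 145 to 186 CPM, and the tubulin cofactor Tbca over 17.7 to 19.1 and 25.1 to 27.4 CPM. The groups of these 6 genes did not overlap, and in the quasi-likelihood test of 9 libraries their adjusted p-values lay between 0.332 and 0.502.

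The 6 genes that the study's text names from its interactome (Cox5b, Eif2s2, Pfdn5, Rpl21, Rpl34 and Srp14) were higher at an unadjusted p under 0.05, and 0 of them were DEGs by the quasi-likelihood test, by DESeq2 or by the fit of 6 libraries. Their log2 fold changes ran from 0.31 to 0.48, and 5 of the 6 did not overlap. Among all tested genes 5.55% were higher at that p and 11.9% higher without overlap, and the first share depended on the scaling. The summed level of the 6 was 239 to 275 CPM in WT and 323 to 363 CPM in Lmx1b-/-. In Lmx1b+/- 1 to 3 it was 571, 550 and 719 CPM, above both. Eif2s2, a translation initiation factor subunit, had 60.6, 61.9 and 64.1 CPM in WT against 73.2, 82.6 and 75.9 CPM in Lmx1b-/-, and the ribosomal protein gene Rpl21 34.4, 29.5 and 39.5 CPM against 45.8, 53.2 and 45.8 CPM. The study picked these genes by Lmx1b motifs near their starts, and whether their expression in these libraries entered that choice is not given in the sources used here, so their direction is not taken as independent evidence. Ribosomal protein genes share sequence with many pseudogenes, which makes their counts uncertain.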

How the data were processed

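RNA of brainstem tissue was made into libraries with a directional kit that carries molecular indexes and sequenced on an Illumina HiSeq 2000. The study's methods give hisat2 for alignment, systemPipeR for the workflow and edgeR for differential expression, and the submitters' processing notes give HISAT2 and GRCm39. How reads were counted, whether strand or molecular indexes were used, and the annotation are not given in the sources used here. The authors deposited counts per gene, as whole numbers without normalization, and RPKM per gene, in which each count is scaled by the length of its gene and the sum of its library. That relation was checked on the values (largest relative spread of the implied gene length 9.98e-15). A symbol was found in a GENCODE table of gene names for 51884 (90.7%) of the 57180 Ensembl identifiers, and 0 rows name no gene. The tables of the other experiment were not used here. The column read as WT 3 carries the number of its library name instead of 3.

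Counts of 9 libraries (WT, Lmx1b+/- and Lmx1b-/-, 3 each) were fitted in R 4.3.3 with edgeR 4.0.16: filterByExpr, TMM, the quasi-likelihood F-test with genotype as the only term, the contrast Lmx1b-/- minus WT, with Benjamini-Hochberg adjusted p-values over the 21729 genes tested. The SE given with a log2 fold change is its absolute value divided by the square root of the quasi-likelihood F statistic. The floor was 3 counts of the TMM-scaled total, and intervals and floors cover counting error only. No library is a copy of another: replicates differed by far more than sampling noise. Alternatives used DESeq2 1.42.0, limma 3.58.1 on log2(RPKM + 1) and log2(RPKM + 0.1), other scalings and filters, and the fit of the 6 WT and Lmx1b-/- libraries. They also used the replicate number as a block, removal of a trend with gene length, stricter thresholds, and each WT and Lmx1b-/- library left out. A block for sex and the libraries low in Xist alone were added after the data were seen. The scripts were tested on simulated counts.

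The 33 gene lists came from general knowledge. The members, lists and tests were chosen with earlier results of these data known. Named genes were Lmx1b; the 12 DEGs of each direction with the smallest adjusted p among those changed at least 2-fold without overlap; up to 4 DEGs of each list; a fixed set of identity genes whatever their result (Fev, Tph2, Slc6a4, Gata3, Th, Slc6a3, Pitx3, Nr4a2, En1, En2, Wnt1, Fgf8, Dbh, Phox2a, Tlx3, Drgx, Lbx1 and Lmx1a); the 6 genes of highest mean among those lost and those gained; and 5 DEGs of each direction under 1 CPM. All other genes were named after their values were seen. A few genes that enter the counts are not reported here by name. Promoter sequences are from RefSeq on GRCm38.p6.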

Additional observations from a re-analysis of the deposited data

How the results depend on the processing

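Slc6a4 and Tph2 were DEGs under all 22 alternatives, and Lmx1b under 20. The Lmx1b log2 fold change was −1.78 with limma on log2(RPKM + 1), where its adjusted p was 0.101, and −3.46 in the libraries low in Xist, where its adjusted p was 0.529. The 4 DEGs became 35 with DESeq2 (13 higher, 22 lower), 36 with the likelihood-ratio test (16 higher, 20 lower), 2 with limma on log2(RPKM + 1), both lower, 19 with library size only (6 higher, 13 lower), 329 with all genes that had any count (149 higher, 180 lower) and 13 in the fit of the 6 libraries alone, all lower. Leaving out each WT and Lmx1b-/- library in turn gave 3 to 11 DEGs, 0 to 8 of them higher and 3 to 10 lower. WT 2 raised the lower count to 10 when left out, and Lmx1b-/- 2 the higher count to 8. The Lmx1b+/- libraries were not left out 1 at a time. The cause of these changes was not tested. A block for sex and the fit of the libraries low in Xist alone were chosen after seeing the data. The block left 3 DEGs (Slc6a4, Tph2 and Lmx1b). The libraries low in Xist, 2 of WT, 2 of Lmx1b+/- and 1 of Lmx1b-/-, which is assumed to vary like the others, gave 7 DEGs, 2 of them higher (Dlx6os1 and Dlx1). Fitted directions reversed for Lmx1a (0.080 without WT 1 and 0.049 without Lmx1b-/- 3, down to −0.28), Pax7 (0.38) and Tcf7l2 (0.074), the last pair with the sex block. These 3 genes overlapped between the genotypes.

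With the replicate number as a block, 5 genes were called, 2 of them higher (Dlx6os1 among them), and Calb1 was lost. The labels do not say whether libraries of the same number belong together. Deviations of same-numbered WT and Lmx1b-/- libraries correlated at 0.0758, 0.148 and 0.0974, and those of differently numbered ones at −0.0952 to −0.01. Every library thus correlated best with its own number. The main fit does not use the number, and what the numbers share was not tested.

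By list, in the order DESeq2, likelihood-ratio test, library size only and any count, the DEGs were 6, 4, 4 and 8 for serotonergic, 4, 3, 3 and 9 for dopaminergic, 2, 3, 3 and 7 for isthmic, 3, 1, 1 and 8 for noradrenergic, 2, 2, 1 and 9 for dorsal sensory and 5, 6, 5 and 18 for forebrain genes. The fit of 6 libraries gave 3 for isthmic, 2 for dorsal sensory and 2 for cerebellar genes, the libraries low in Xist 3 for isthmic and 1 for forebrain genes, and the replicate block 1 for forebrain genes. Leaving out each WT and Lmx1b-/- library gave 2 to 4 serotonergic, 0 to 4 dopaminergic, 0 to 1 isthmic, 0 to 2 noradrenergic, 0 to 7 forebrain and 0 to 1 cerebellar DEGs. Cerebellar DEGs numbered 3 with DESeq2, 3 with the likelihood-ratio test, 8 with any count and 0 with limma at either pseudocount, at a 2-fold change, at an adjusted p under 0.01, with either block and in the libraries low in Xist. Tiers set by the WT libraries alone moved the DEG between 1 and 10 CPM to the next tier, leaving 0. A limit of 1 count gave 78 lost and 120 gained genes, and a limit of 10 counts 26 and 31. Depth limits the lowest tier most, where a group at 0 could hold up to 0.106 CPM.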
